A study of Arabidopsis thaliana with 3 samples.

Results

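AT4G39230, AT1G75280 and AT1G19540 are Arabidopsis thaliana genes for NmrA-type reductases, relatives of the isoflavone reductases and phenylcoumaran benzylic ether reductases of other plants. They are 3 of the 9253 genes with a value on every array, and each was read by 1 spot whose only listed gene is that locus. They were chosen from this family with their low ratios on these arrays already known. The values of the 3 genes are therefore given as a description and carry no test. A further measured gene of the family, AT1G75300, is not among them.

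Each array set RNA from 1 sample of nst1-1 nst3-1, a double mutant with T-DNA insertions in the NAC transcription factor genes NST1 and NST3, against RNA from wild-type stems. There were 3 such samples, numbered 1 to 3 in the labels and called lines 1, 2 and 3 here; the series describes the lines as independent, and all carry the same allele names. RNA came from the lowest 4 cm of inflorescence stems 12 to 17 cm tall, from plants grown in 8 h of light and 16 h of dark with no treatment, and the labels state that the mutant forms no secondary xylem in stem and hypocotyl. Mutant RNA was labelled with Cy5 for lines 1 and 3 and with Cy3 for line 2, and wild-type RNA with the other dye. Neither the age of the plants nor the number of wild-type extracts is known here.

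The values are ratios, not levels: a log2 ratio of -1 is a transcript 2-fold lower in nst1-1 nst3-1 stems than in wild type. This direction follows from the labelled dyes if a deposited ratio is Cy5 over Cy3, and every fold holds if it is a log10; neither was stated with the values. Ratios give no level in either genotype, so the stem label was not checked against marker levels, and NST1 and NST3 had no listed spot and were not analysed here. In a bulk stem sample, fewer cells of a type and less RNA per cell cannot be told apart. Of the 9253 genes, 241 were lower and 73 higher in the mutant by limma (adjusted p under 0.05, Benjamini-Hochberg over all genes), and the median log2 ratio of all genes was 0.013.

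Reductases of this family take hydride from NADPH and pass it to phenylpropanoid-derived substrates. In phenylcoumarans, a pair of coniferyl alcohol units has been coupled by peroxidase or laccase into a ring that holds a benzylic ether, and phenylcoumaran benzylic ether reductase opens that ether; the enzyme is known from pine and is abundant in the xylem of poplar. Pinoresinol reductases act on a differently linked coniferyl alcohol dimer in lignan synthesis, and isoflavone reductases serve phytoalexin synthesis in legumes. Monolignols such as coniferyl alcohol are also the units of lignin, which stiffens the secondary walls of xylem vessels and fibres.

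All 3 reductase genes were several-fold lower in nst1-1 nst3-1 stems than in wild type, in every line, and by nearly the same amount. Their mean log2 ratios lay between -2.63 and -2.49, which corresponds to 16.1% to 17.8% of the wild-type signal. Every one of the 9 single values was beyond a 5-fold decrease.

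AT1G19540, annotated as a NmrA-type reductase, had log2 ratios of -2.51, -3.01 and -2.38 in lines 1, 2 and 3. Line 2 was lowest, and the others lay close together. The mean was -2.63 ± 0.34 (SD, n = 3 lines), or 6.21-fold lower in the mutant, with folds of 5.71, 8.07 and 5.19 in the single lines. It was the lowest of the 3 genes on every array.

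AT4G39230, the second gene, is likewise an isoflavone reductase relative. Its log2 ratios were -2.44, -2.80 and -2.37 in lines 1, 2 and 3. Line 2 was again lowest. The mean was -2.54 ± 0.23 (SD, n = 3 lines), or 5.80-fold lower, with single-line folds of 5.45, 6.95 and 5.16.

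AT1G75280 is listed under the older name P3 in the gene table; a P3 clone of this family was described as protecting yeast from a thiol-oxidising drug. Its log2 ratios were -2.47, -2.65 and -2.36 in lines 1, 2 and 3. The mean was -2.49 ± 0.15 (SD, n = 3 lines), or 5.63-fold lower, with single-line folds of 5.56, 6.28 and 5.12. It was the most even of the 3 genes over the lines, with a range of 0.30 on the log2 scale against 0.43 for AT4G39230 and 0.64 for AT1G19540.

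**Figure D1:**
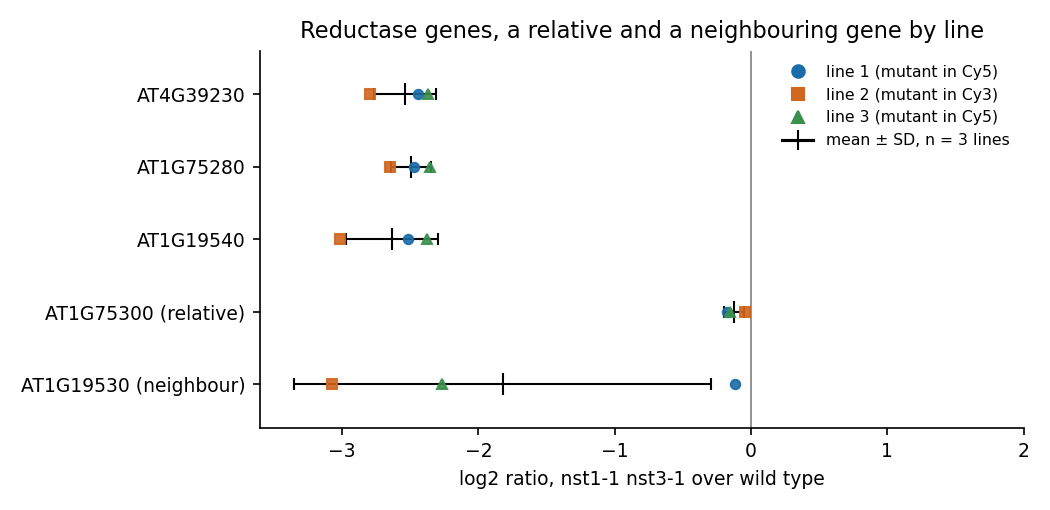
Log2 ratio of nst1-1 nst3-1 over wild type on the horizontal axis for the 3 reductase genes, the reductase relative AT1G75300 and AT1G19530, the gene beside AT1G19540. Symbols are the 3 lines and bars the mean ± SD. The reductase genes sit between -3.01 and -2.36, AT1G75300 sits near 0, and line 1 of AT1G19530 stands apart from its other lines.

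The order of the means, from the lowest, was AT1G19540, AT4G39230 and AT1G75280, and no neighbours in that order differed beyond their spread over lines. The means spanned 0.14 on the log2 scale, less than the smallest SD over lines of any of the 3 genes (0.15). The genes were within 0.07 of each other in line 1 and within 0.02 in line 3. Line 2 set them apart more, with a span of 0.36. AT4G39230 minus AT1G75280 was 0.03, -0.15 and -0.01 in lines 1, 2 and 3, a mean difference of -0.04 ± 0.09 (SD, n = 3 lines).

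The same closeness appeared when each gene was set against all others by Euclidean distance over the 3 log2 ratios. AT1G75280 was the nearest of 9252 genes to AT4G39230, at a distance of 0.15, and the reverse held too. AT4G39230 was likewise the nearest to AT1G19540, at 0.23, with AT1G75280 next at 0.36. Seen from AT1G75280, AT1G19540 ranked 4 in nearness, and from AT4G39230 it ranked 3. Genes chosen because they were all strongly lower lie close in this measure, so these ranks are a description. Probe sequences were not used here, and how far a spot also reads the transcript of a related gene was not tested.

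The lowest value of each gene fell on the array of line 2, the 1 array with the mutant in Cy3. The mean of the arrays with the mutant in Cy5 was -2.44 for AT1G19540, against -3.01 with the mutant in Cy3. These values were -2.41 and -2.80 for AT4G39230, and -2.42 and -2.65 for AT1G75280. Of the 30 genes that were 4-fold or more lower on every array, these 3 included, 17 (56.7%) were lowest in line 2. Of the 133 genes that were 2-fold or more lower, 53 (39.8%) were lowest there. Line 2 and the dye orientation cannot be told apart. Without the array of line 2, the 3 genes had log2 ratios between -2.44 and -2.41.

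Against the whole array, the 3 genes lay in the far lower tail. By mean log2 ratio they ranked 17 (AT1G19540), 20 (AT4G39230) and 22 (AT1G75280) from the lowest of 9253 genes. By single array, AT4G39230 ranked 36, 24 and 28 in lines 1, 2 and 3, AT1G75280 ranked 31, 28 and 29, and AT1G19540 ranked 29, 18 and 27. All 3 were 2-fold or more lower on every array, as were 1.44% of all genes. All 3 were also 4-fold or more lower, as were 0.324%, and 5-fold or more lower, as were 0.205%. Read as Cy3 over Cy5 instead, the whole table would change sign, and the same ranks and shares would count from the highest gene. Nothing is read from these shares, since the same ratios were known when the genes were chosen. None of the 3 genes reached the lower bound of the deposited values, and none had a value of exactly 0.

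The SDs of the 3 genes over the lines, 0.15 to 0.34, lay on both sides of the median of strongly lower genes. That median SD was 0.22 for the 30 genes that were 4-fold or more lower on every array, these 3 included. It was 0.18 for all genes. Of the 30 genes, 24 had an SD no larger than that of AT1G19540, itself counted.

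**Figure D2:**
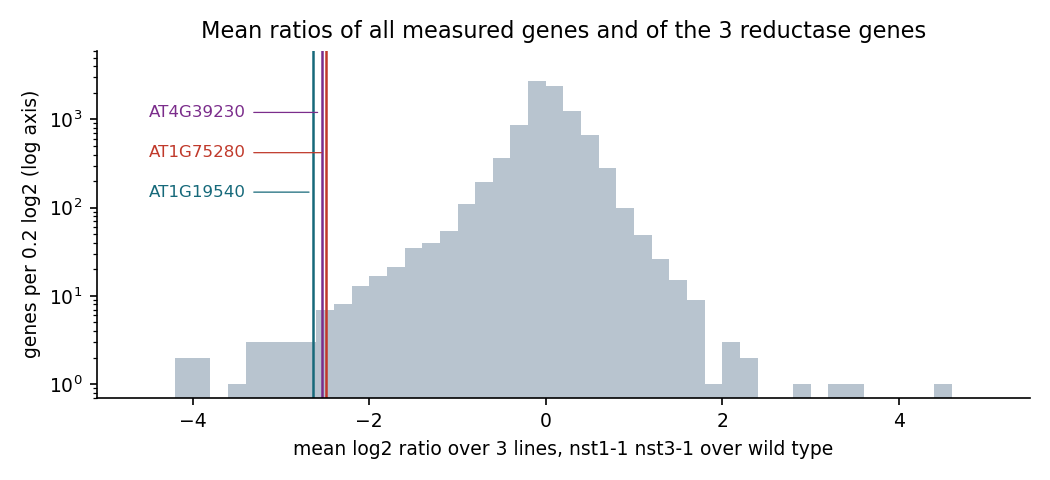
Number of genes per 0.2-wide step of the mean log2 ratio (nst1-1 nst3-1 over wild type, 3 lines), with a logarithmic vertical axis. Vertical lines mark the 3 reductase genes, which lie at -2.63, -2.54 and -2.49 in the lower tail, where 22 genes lie as low as or lower than the highest of them.

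Of the 5 other listed members of the family, 1 was measured, and its ratios lay near 0. AT1G75300, which follows AT1G75280 and AT1G75290 in the gene order and encodes a reductase of the same family, had log2 ratios of -0.18, -0.04 and -0.15 in lines 1, 2 and 3. All lie close to 0, and whether this spot was dim is not known, since intensities were not used. The mean was -0.12 ± 0.07 (SD, n = 3 lines; limma adjusted p = 0.40, not called). The difference from the 3 genes was not tested, since they were chosen on these ratios. AT1G75290, the pinoresinol reductase genes PRR1 and PRR2, and AT4G34540 were not analysed here.

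Further reductases with a similar NAD(P)H-binding fold were set beside them as values. This list, with 26 genes similar to cinnamoyl-CoA reductase or with related folds, was drawn up after the values of the 3 genes had been seen, and gets no test. Of its 16 measured genes 3 were below 0 on every array and 5 above it. None was 2-fold or more lower on every array, against 1.44% of all genes, and nothing is read from that in so short a list. The means ran from -0.35 to 0.44 with a median of 0.10. The lowest mean was that of AT1G09490 at -0.35 ± 0.17 (SD, n = 3 lines), and AT5G19440 followed at -0.25 ± 0.13. FLDH, a farnesol dehydrogenase gene, was at 0.04 ± 0.13. The highest mean was that of AT1G66800, at 0.44 ± 0.63, with both signs among its lines. On single arrays these genes lay between -0.61 and 1.11.

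Both measured reductases of the flavonoid branch had positive ratios and did not pass the test. DFR, which reduces dihydroflavonols on the way to anthocyanins, had log2 ratios of 2.73, 5.35 and 5.58 in lines 1, 2 and 3. All were high, with line 1 well below the others. The limma adjusted p was 0.0511, or 0.047 with arrays centred on the median, 0.0412 with zeros left out and 0.0175 without line 1. It was 0.0589 with scaled arrays, 0.0527 with a robust variance prior and 0.101 with all spots fitted. DFR itself had no zero, so leaving zeros out changed the values of other genes only. Over all genes, the main fit called 314. Centred arrays called 408, scaled arrays 519, zeros left out 464 and the fit without line 1 1157. These totals hold wherever the same fits are named below. BAN, the anthocyanidin reductase of proanthocyanidin synthesis, was at 0.39 ± 0.19 (SD, n = 3 lines; limma adjusted p = 0.124). Both were higher at an unadjusted limma p under 0.05, a level at which 13.9% of all genes were higher and 11.9% lower. These 2 were the measured genes of the 11 on the list of flavonoid synthesis and related reductases.

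Upstream, on a list of 27 genes for monolignol synthesis and relatives of such genes, 1 of 3 measured genes fell and none rose. Over all genes, 2.60% were called lower and 0.789% higher. The median of their 3 mean log2 ratios was the value of CYP84A4, -1.17, against 0.013 over all genes. Nothing is read from the median of so few genes. HCT, the hydroxycinnamoyl transferase that leads p-coumaroyl-CoA towards coniferyl alcohol, had log2 ratios of -2.56, -2.23 and -2.42 in lines 1, 2 and 3 (mean -2.40, limma adjusted p = 0.00917). This is close in size to the 3 reductase genes, but line 2 was here the highest and not the lowest. CYP84A4, a relative of ferulate 5-hydroxylase, had -1.62, -0.78 and -1.10, a mean of -1.17 ± 0.42 (SD, n = 3 lines), and was not called (limma adjusted p = 0.0593). It was called lower with scaled arrays (limma adjusted p = 0.0438), with zeros left out (0.0479) and without line 1 (0.0376). Those fits called 519, 464 and 1157 genes in all, against 314 in the main fit. CYP84A4 was not called with centred arrays (0.0535), a robust variance prior (0.0604) or all spots fitted (0.108). CCR2, a cinnamoyl-CoA reductase known mainly from defence, was at -0.02 ± 0.33 (limma adjusted p = 0.95).

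Genes that store monolignols and lignans as glucosides, or release them, gave no call among 6 measured of 9 listed. At an unadjusted limma p under 0.05, 1 was higher and 2 were lower, beside 13.9% and 11.9% of all genes. Their median mean log2 ratio was 0.30. The beta-glucosidase genes BGLU46 and BGLU45, whose enzymes act on monolignol glucosides, had means of -0.95 ± 0.42 and -0.80 ± 0.69 (SD, n = 3 lines). The limma adjusted p was 0.0759 for BGLU46 and 0.191 for BGLU45. BGLU46 was called lower with scaled arrays (limma adjusted p = 0.0494) and without line 1 (0.0413). It was not called with centred arrays (0.0699), zeros left out (0.0638) or all spots fitted (0.132). Both beta-glucosidase genes were negative in every line. The glucosyltransferase gene UGT72E2, for coniferyl alcohol and sinapyl alcohol, had -0.13, 1.78 and 1.71 in lines 1, 2 and 3 (limma adjusted p = 0.221). UGT71C1, for a glucosyltransferase that acts on lignans and flavonoids, had -0.01, 1.01 and 1.02 (limma adjusted p = 0.202). In both, line 1 stood near 0 and apart from the others, and without line 1 both were called higher, at 1.75 and 1.02, in a fit that called 1157 genes in all. UGT72E1 and UGT72E3 were at 0.69 ± 0.55 and -0.07 ± 0.55 (limma adjusted p = 0.176 and 0.876).

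Dirigent proteins guide the coupling of coniferyl alcohol radicals to a defined dimer in lignan synthesis, and none of the 13 measured genes of 24 listed was called in either direction by limma over all genes. At an unadjusted limma p under 0.05, 2 of the 13 were above 0, AT3G13660 and AT1G55210, and none below, beside 13.9% and 11.9% of all genes; nothing is read from so small a count. The median of the 13 means was 0.01. The extremes were AT3G13650, with -1.44, -0.18 and -0.22 in lines 1, 2 and 3, and AT1G55210, with 1.10, 0.46 and 0.25. In each of these the outlying value was that of line 1. AT3G13660 was at 0.53 ± 0.13 (SD, n = 3 lines; limma adjusted p = 0.0627). AT4G11210 had a mean of -0.58 ± 0.55, and the other 9 had means between -0.15 and 0.17.

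**Figure D3:**
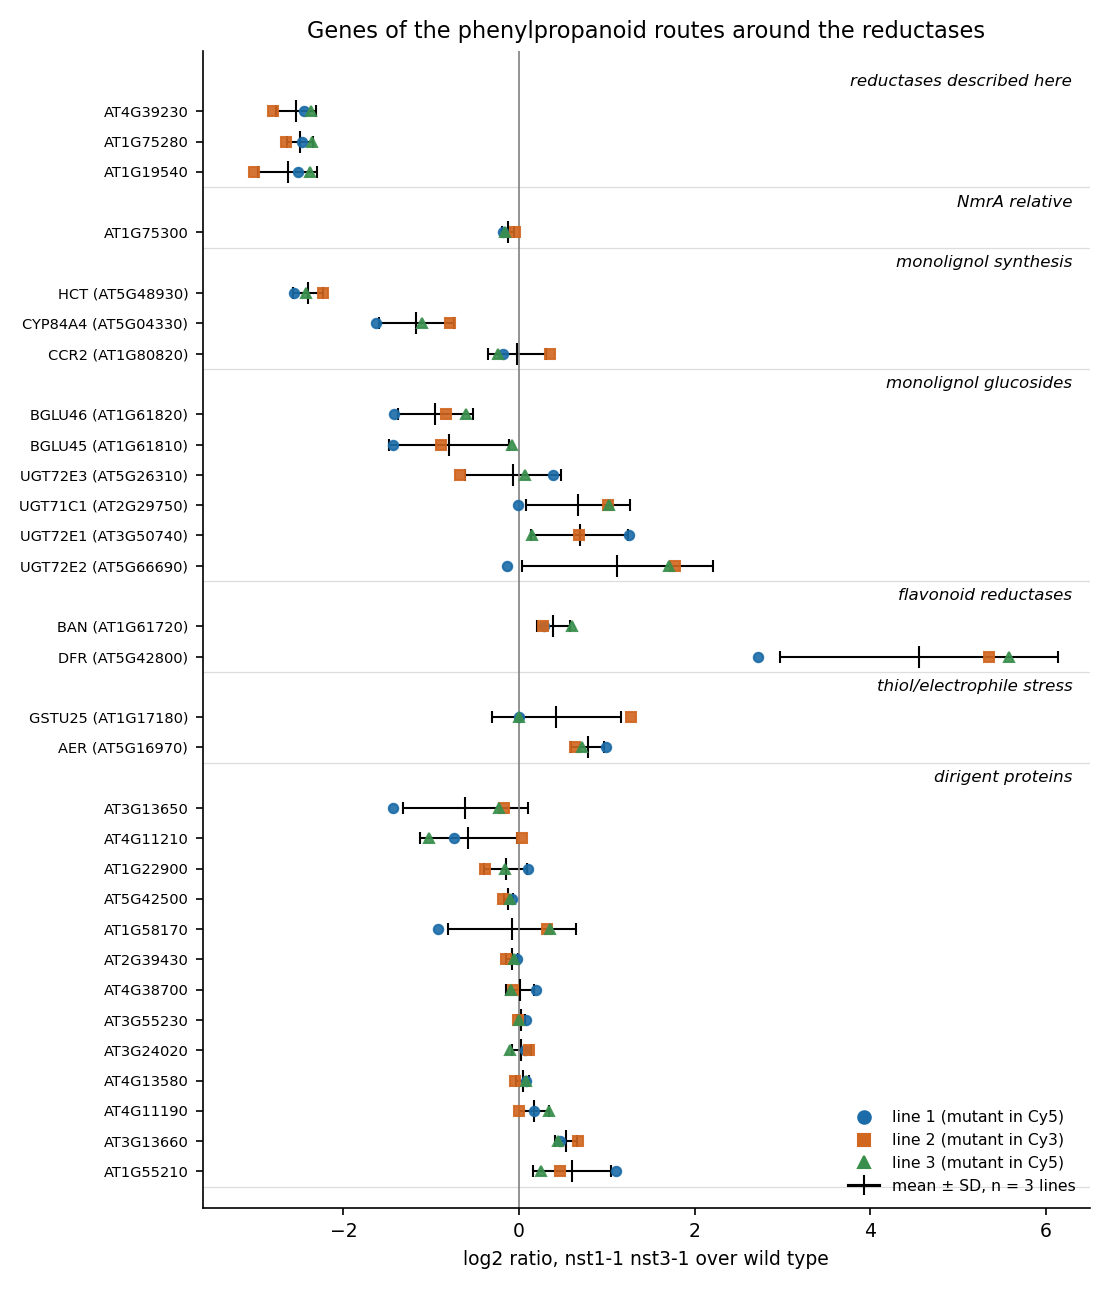
Log2 ratio of nst1-1 nst3-1 over wild type for the 3 reductase genes and for measured genes of the routes around them, grouped by role; symbols are lines and bars the mean ± SD. The 3 reductase genes and HCT lie beyond -2 in every line, and DFR lies far to the right. The dirigent protein genes have means between -0.61 and 0.60, with single lines from -1.44 to 1.10.

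The laccase and peroxidase families, some of whose members make monolignol radicals for dimers and lignin, had 10 measured genes of 33 listed. Laccases were barely covered, with peroxidase genes making up all but 1 of the 10. By limma, 1 of the 10 was higher and none was lower, beside 0.789% and 2.60% of all genes. At an unadjusted limma p under 0.05, 4 were higher and 2 lower, beside 13.9% and 11.9% of all genes. The median of the means was 0.38. AT2G22420, a peroxidase gene, rose by 0.68 ± 0.10 on the log2 scale (SD, n = 3 lines; limma adjusted p = 0.0458, or 0.0727 when all spots were fitted). The peroxidase gene AT5G51890 had -1.75, -1.42 and -0.75 in lines 1, 2 and 3, and was not called. Its limma adjusted p was 0.0627, or 0.0416 with scaled arrays and 0.115 with all spots fitted. AT5G64120 and AT4G36430, also peroxidase genes, had means of 0.98 ± 0.35 and 0.67 ± 0.71 and were not called (limma adjusted p = 0.0613 and 0.259). AT5G64120 was called with scaled arrays (0.041) but not with all spots fitted (0.11).

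A thiol and electrophile stress list, set beside the reported diamide tolerance from P3, had 2 measured genes of 14. AER, whose NADPH-dependent enzyme reduces reactive alkenals, rose by 0.78 ± 0.18 on the log2 scale, 1.72-fold, with line values of 0.99, 0.64 and 0.72 (limma adjusted p = 0.0494; a robust variance prior gave 0.0514 and fitting all spots 0.083). Its lines lie opposite in sign to those of AT1G75280. GSTU25, a glutathione transferase gene, was listed at exactly 0 in lines 1 and 3 and at 1.28 in line 2 (limma adjusted p = 0.451).

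The 2 measured markers of xylem walls, a gene and its homologue, were lower along with the 3 genes. They were the measured ones of 9 listed fibre and vessel markers. Both were called lower by limma, as were 2.60% of all genes. IRX15, needed for xylan in secondary walls, had log2 ratios of -1.92, -2.38 and -2.12, and its homologue IRX15-L -1.37, -1.51 and -1.42, in lines 1, 2 and 3 (limma adjusted p = 0.0126 for each). As in the 3 reductase genes, line 2 was lowest in both. Among 6 listed green cortex markers 3 were measured and 1 fell, LHCB4.3 at -0.75 ± 0.16 (SD, n = 3 lines; limma adjusted p = 0.0483; a robust variance prior gave 0.0502). LHCB4.1 and LHCB4.2 were at -0.86 ± 0.44 and -0.63 ± 0.63 and were called lower only without line 1 (limma adjusted p = 0.0223 and 0.0249), among the settings tried at this threshold. None of the 2 measured phloem and cambium markers and the 1 measured epidermis marker was called by limma, nor did any reach an unadjusted p under 0.05: SWEET11 had 2.28, 0.16 and -0.50 in lines 1, 2 and 3, with a mean of 0.64 that was -0.17 without line 1 and 1.22 without line 3. CLE41 was at 0.01 ± 0.34 and WSD1 at -0.03 ± 0.08. The part of these tissues in the decrease of the 3 genes was not tested.

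The genes with the most similar ratios outside the family numbered 4, and all fell. They were taken as the 3 nearest to each reductase gene by the same distance over 3 arrays. AT3G11180, for an oxygenase that uses 2-oxoglutarate, was nearest to AT4G39230 (0.21) and to AT1G75280 (0.23), with log2 ratios of -2.26, -2.71 and -2.41 in lines 1, 2 and 3. AT2G39110, a protein kinase gene, was nearest to AT1G19540 (0.39), with -2.53, -2.81 and -2.70. Both had their lowest value in line 2, as had AT5G35740, at -2.32 ± 0.11 (SD, n = 3 lines). AT1G72200, a RING-domain protein gene, was at -2.74 ± 0.13. The limma adjusted p was 0.0104 for AT3G11180 and 0.00917 for each of the others. These genes were picked for ratios close to those of the reductase genes line by line. Their low ratios, and in part a lowest value in line 2, therefore follow from the choice.

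Of the genes directly beside the 3 reductase genes, 3 were measured and none was called by limma. AT1G19530, the gene before AT1G19540, had log2 ratios of -0.12, -3.08 and -2.27 in lines 1, 2 and 3. In lines 2 and 3 it was about as low as AT1G19540, and in line 1 it stood near 0 while AT1G19540 was at -2.51. Its mean of -1.82 ± 1.53 (SD, n = 3 lines) was not called (limma adjusted p = 0.178 and unadjusted p = 0.0428), and without line 1 it was called at -2.67 (limma adjusted p = 0.0272). AT1G19550, on the other side, was at -0.07 ± 0.08, and ATRER1A, the gene before AT4G39230, at -0.11 ± 0.12 (limma adjusted p = 0.627 and 0.514). The genes on either side of AT1G75280, and the gene after AT4G39230, were not analysed here.

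**Figure D4:**
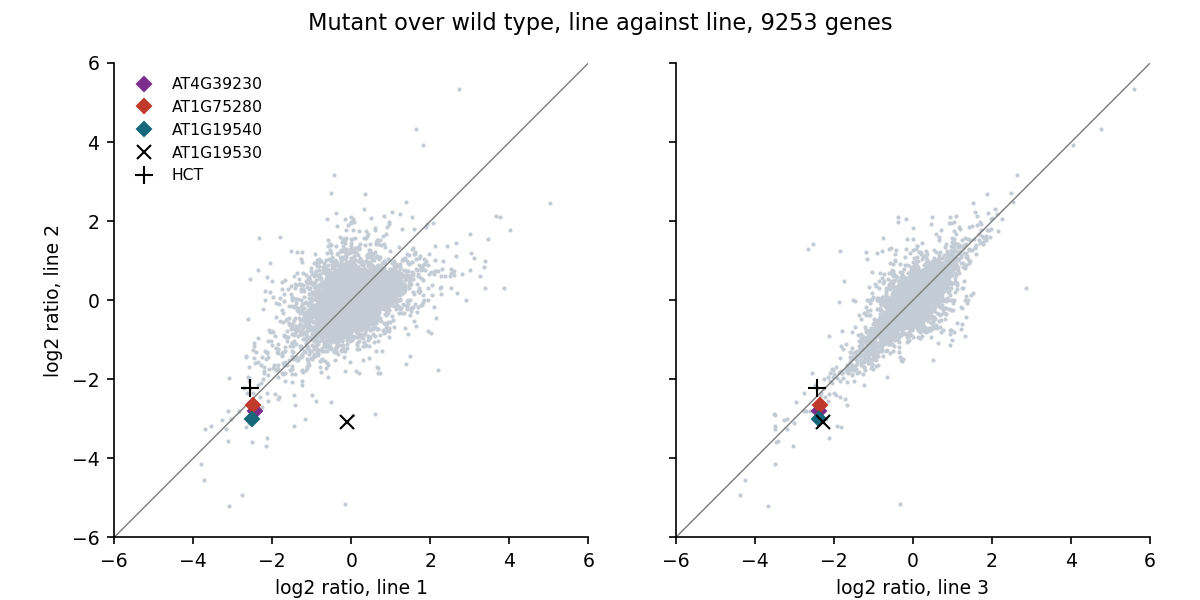
Log2 ratio of nst1-1 nst3-1 over wild type in line 2 (vertical) against line 1 (left) and line 3 (right) for 9253 genes, with the diagonal of equal ratios. The 3 reductase genes lie together below the diagonal in both panels, and HCT lies above it. AT1G19530 lies with the reductase genes against line 3, and at -0.12 on the axis of line 1.

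The lines differed over the array as a whole. The Pearson correlation over genes, whose values are not independent of each other, was 0.784 between lines 2 and 3, 0.488 between lines 1 and 2, and 0.477 between lines 1 and 3. Line 1 set several genes named above apart, among them AT1G19530, UGT72E2, UGT71C1 and DFR. For the 3 reductase genes, leaving out line 1 moved the means to between -2.69 and -2.50. No gene was called by limma without line 2, without line 3 or with a dye term, so every call given above for other genes is lost there; at an unadjusted p under 0.05 there were 1373, 1430 and 1592 genes.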

How the data were processed

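The authors' deposited log10 ratios, 1 per spot and array for 22236 spots, were used. Cy5 over Cy3 on a log10 scale was assumed, the base from a lower bound of exactly -2 in every column; each column's median was 0. Scanner, background correction and dye normalization are not given in the sources used here. Intensities were not used, so dim or saturated spots were not identified. The number of arrays, 3, limits the precision.

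Line 2 was turned in sign by its dye label and values were converted to log2. Spots with 1 listed gene (9335) were named through the platform annotation and the RefSeq table of assembly TAIR10.1 (9317 matched) and averaged to 9253 genes; the 40 spots with several genes and 12861 with none were not named. limma 3.58.1 (R 4.3.3) fitted the 3 ratios against 0, two-sided; the script was tested on simulated data. Wild type was never set against itself, so its own spread has no separate estimate. If the arrays shared 1 wild-type extract, their ratios share its error, which the SDs over lines and the limma p-values leave out.

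The members and the 12 lists (157 genes, 48 measured) were chosen with earlier results of these data known. Named were the 3 genes and all measured genes of the NmrA, monolignol, glucoside and dirigent lists. Of each other list, up to 4 genes with the largest absolute mean log2 ratio were named. The 3 genes most alike to each member and the measured neighbours were named too. A part of the rule based on protein matches was not run. The 16 further reductases were added later.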

Additional observations from a re-analysis of the deposited data

How the results depend on the processing

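The mean ratios of AT4G39230, AT1G75280 and AT1G19540 moved by less than their SD with centred or scaled arrays and with a dye term. The median over genes was 0.01 on each array, so centring could move them little. With 3 arrays, a dye term always moves a mean by less than its SD. Each gene had 1 spot and no value of exactly 0, so leaving out zeros or the widest spot could not change them. Their sign could not turn in these settings, since every single value was negative. These outcomes therefore say nothing about stability. Leaving out 1 line gave -2.62 to -2.41 for AT4G39230, -2.56 to -2.42 for AT1G75280 and -2.76 to -2.44 for AT1G19540. Reading the deposited values as log2 gave -0.76, -0.75 and -0.79, by construction. Counts moved far more; for these the cause was not tested unless stated. Over all genes, limma called 73 higher and 241 lower. Scaled arrays gave 175 and 344, with both counts larger, and zeros left out gave 140 higher. All spots fitted gave 3 and 66, and thresholds of 0.1 and 0.01 gave 530 and 648, and 0 and 24, by construction. Leaving out 1 line gave 0 to 574 higher and 0 to 583 lower. Among the 45 measured list genes other than the 3, 2 were higher and 4 lower. Leaving out 1 line gave 0 to 5 higher and 0 to 8 lower, scaled arrays 7 lower, the robust prior 1 higher, all spots fitted 0 higher, and thresholds of 0.1 and 0.01 gave 7 and 8, and 0 and 1. The dye term gave 0 in all 4 counts; it leaves fewer degrees of freedom. No paired analysis was possible because each array is already a ratio of mutant to wild type and there is 1 group of ratios. Dim spots could not be told from bright ones, which limits how far ratios near 0 can be read.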
